A study of Mus musculus with 11 samples.

Results

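The genes followed here through single cells of the mouse retina at P10 drive or restrain cell division. They are the D cyclins Ccnd1, Ccnd2 and Ccnd3, their kinase Cdk4, the inhibitors Cdkn1a, Cdkn1b and Cdkn1c, the replication clamp Pcna, and the late-cycle genes Mki67 and Top2a. These 10 genes were taken by name from a table of 25311 genes. All 11 mice were C57BL/6J pups and each gave 1 inDrop library of dissociated retina, from which the anterior segment and the retinal pigment epithelium had been dissected away. Control pups received PBS (n = 3) and their littermates with Phase I ROP, a model of the first phase of retinopathy of prematurity, received streptozotocin (STZ), which makes pups hyperglycemic (n = 3). A separate set of littermates, all STZ-treated, was divided between 2 cages in which the nursing dam ate an ω-3 diet (n = 2) or an ω-6 diet (n = 3), so that diet and cage cannot be told apart. The p-values below measure the spread between mice of a group.

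D cyclins bind CDK4 or CDK6, and the complex phosphorylates the retinoblastoma protein, which releases a cell from G1 into DNA replication. The products of Cdkn1a (p21), Cdkn1b (p27) and Cdkn1c (p57) bind cyclin-kinase complexes and hold cells out of the cycle, and p27 is known for keeping Müller glia from dividing. Most retinal neurons have left the cycle by this age, while vessels are still growing.

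The libraries held 2565568 to 6517776 unique molecular identifiers (UMIs, 1 per captured RNA molecule) each. Cells with more than 300 genes (20033 of 20067) were grouped by clustering into rods (9967 cells), bipolar cells (3596), amacrine cells (3287), Müller glia (1425), cones (1126) and smaller classes, each named from its markers. Of 18842 barcodes, 1154 occurred in more than 1 library. Median UMIs per cell were lower in Phase I ROP (1003.5 to 1190.0) than in control (1550.0 to 2341.0). Class make-up differed too. Rods were 241 of 925, 195 of 787 and 477 of 1493 cells in control. In Phase I ROP they were 1049 of 2039, 660 of 1397 and 1277 of 2312. Values and calls over all cells, and shares of all cells, include this difference, whose part was not tested. The control libraries also stood apart in composition. Rn7sk, a small nuclear RNA, was lower in Phase I ROP by a log2 fold change of -4.76 in Müller glia to -6.76 in bipolar cells, and all 28 immediate early genes of a fixed list, which dissociation of tissue can induce, were higher over all cells (median log2 fold change 3.05). Library differences and treatment therefore cannot be told apart in any comparison with control, and their part in the results below was not tested.

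Levels are given as UMIs per 1000000 UMIs of the class (CPM) for each mouse. Across the 5 large classes, Ccnd1 and Cdkn1b were highest in Müller glia in 11 of 11 mice, with no overlap with the next class. Ccnd1 in Müller glia was 270 ± 95.2 CPM (SD, n = 11), against 27.3 ± 11.7 in amacrine cells, 9.23 ± 6.80 in bipolar cells, 4.24 ± 3.92 in cones and 2.20 ± 2.33 in rods. Cdkn1b was 265 ± 98.3 CPM in Müller glia and 96.4 ± 28.7 in rods, and the 4 neuronal classes overlapped from mouse to mouse. The other members overlapped between their highest class and the next. Müller glia had the highest mean of Ccnd2 (38.1 ± 29.6 CPM), Ccnd3 (186 ± 61.5), Cdk4 (239.6 ± 53.9), Cdkn1a (38.4 ± 24.7), Cdkn1c (202.5 ± 84.3), Mki67 (19.3 ± 18.0) and Top2a (46.3 ± 37.3). The Mki67 and Top2a values come in part from cells of this class that were low in Müller markers, described below. Pcna was the exception, with its highest mean in cones (121 ± 66.0 CPM). Control cones were at 129 to 243 CPM, from only 9 to 12 UMIs in each mouse. Cones were above rods in 8 of 11 mice, but under ω-3 the mean was 46.3 CPM in cones and 71.7 CPM in rods. Cdkn1a in Müller glia and amacrine cells (34.1 ± 15.2 CPM) could not be ordered, as Müller glia were higher in only 5 of 11 mice.

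**Figure D1:**
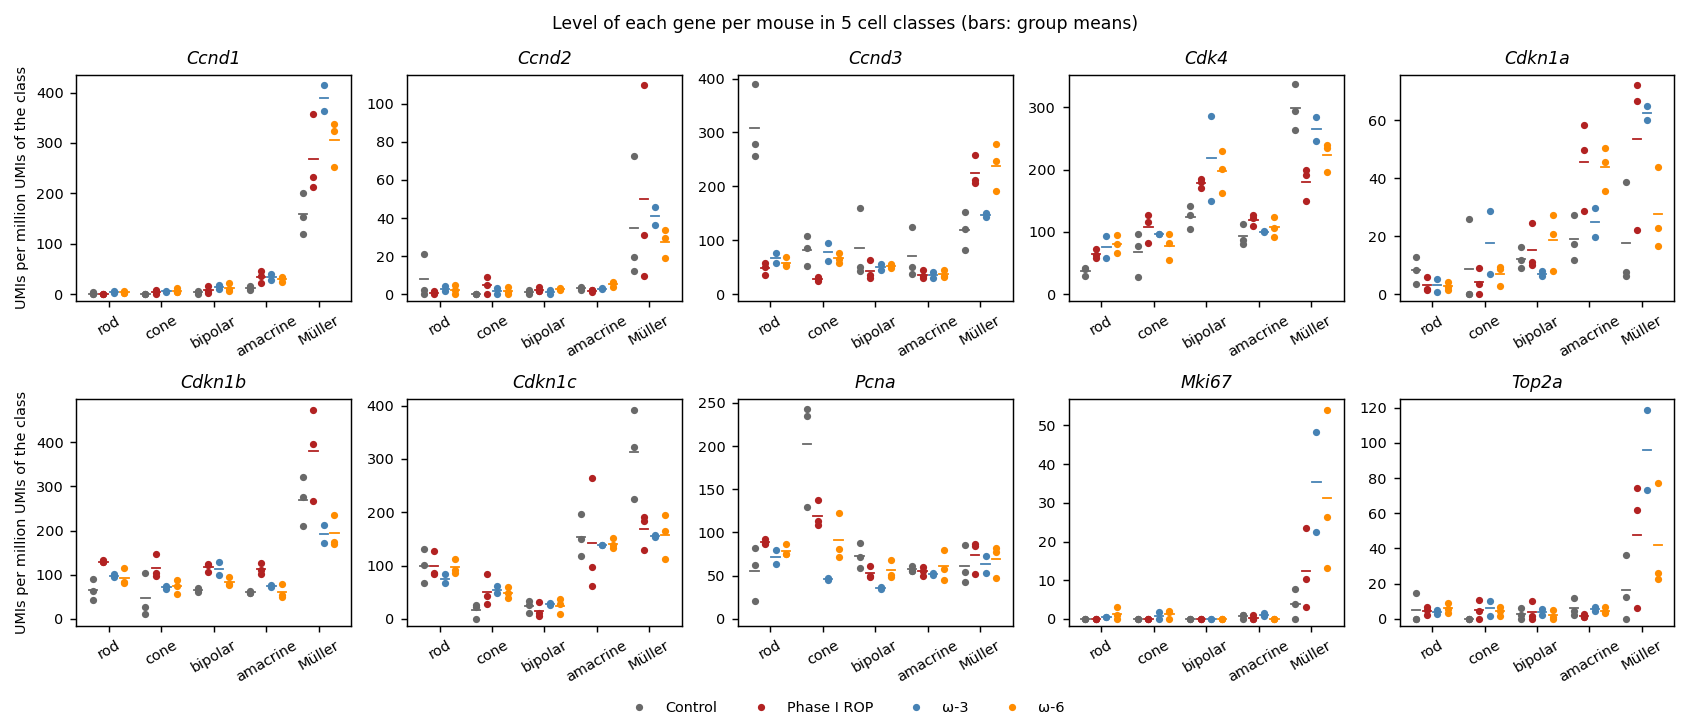
Level of each of the 10 genes in UMIs per 1000000 UMIs of the class (vertical axis, linear, its own range in each panel) for each mouse (points) in 5 classes, with group means as bars. Ccnd1 and Cdkn1b stand highest in Müller glia in all 11 mice, and Ccnd3 in control rods (256 to 389 CPM) stands above rods of every other group.

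Some members were high in classes too small for a test, given here pooled over mice with exact Poisson intervals that cover counting error only. Ccnd2 reached 462 CPM (95% interval 385.9 to 549) in 47 astrocytes, with UMIs in 30 cells. Cdkn1a reached 384 CPM (294 to 493.5) in 59 microglia, 252 (216 to 292.5) in 113 endothelial cells and 178 (157 to 202) in 96 retinal ganglion cells. The pericyte marker Rgs5 was among the leading genes of the endothelial class. Whether that class also holds pericytes was not tested. Neither Ccnd1, Ccnd2, Cdkn1a nor Cdkn1c had a UMI in the 31 horizontal cells, which allows up to 9.89 CPM.

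UMIs summed per mouse and class were compared between groups by edgeR's quasi-likelihood test, adjusted over all genes tested in the class (Benjamini-Hochberg, threshold 0.05). The scaling factors of this test (TMM) moved Phase I ROP against control by -0.12 (Müller glia) to -0.41 (bipolar cells) on the log2 scale relative to total UMIs. A fitted rise can therefore be smaller, and a fitted fall larger, than the ratio of the CPM values. In Phase I ROP vs. control, 1 of 5 members tested was called in rods, where 38.1% of all tested genes were called. It was lower, as were 19.7% of all genes, with 18.4% higher. By edgeR 0 of 3 members were called in cones, with 1 at an unadjusted p under 0.05 and 0 by DESeq2, beside 18.8% of all genes (10.9% higher and 7.9% lower). In bipolar cells 2 of 5 were called, both lower, beside 45.3% of all genes (21.3% higher and 23.9% lower). In amacrine cells 4 of 7 were called, 3 higher and 1 lower, beside 38.8% (18.3% higher and 20.5% lower). Müller glia had 2 of 6, both lower, beside 10.8% (5.81% higher and 5.03% lower), and all cells together had 2 of 9, 1 in each direction, beside 48.1% (24.7% higher and 23.4% lower). The split of all genes by direction rests on the TMM scaling. With scaling by total UMIs, added after the data were seen, it was 2351 higher and 1127 lower in rods, 644 and 135 in cones, 416 and 155 in Müller glia, 3825 and 1320 in amacrine cells, 3814 and 1291 in bipolar cells and 5536 and 2306 over all cells. The members' share lay below that of all genes in rods, cones, bipolar cells and all cells and above it in amacrine cells and Müller glia, where single members decide it. Members not counted here did not pass the filter on low counts. Mki67 passed it in no class of this comparison.

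**Figure D2:**
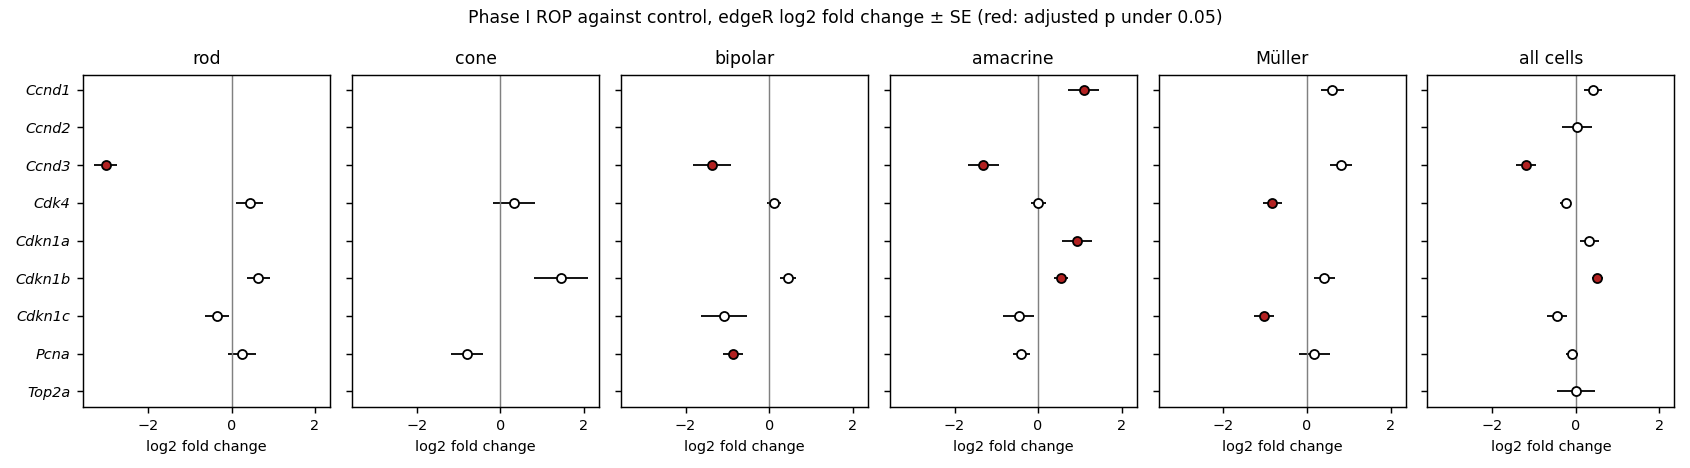
Log2 fold change of each tested member in Phase I ROP vs. control (horizontal axis) with its SE (bars) in 5 classes and over all cells, red where the adjusted p was under 0.05. Ccnd3 lies furthest from 0, at -3.01 in rods.

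Ccnd1, the D cyclin that retinal progenitors use most, was higher in Phase I ROP amacrine cells. It was 16.8, 11.6 and 9.12 CPM in the 3 control mice and 45.6, 35.8 and 21.9 CPM in the 3 Phase I ROP mice. All Phase I ROP mice lay above all controls, with a log2 fold change of 1.09 ± 0.37 (SE; adjusted p = 0.0303, edgeR). The call was lost without control replicate 2 or 3 or without Phase I ROP replicate 1 or 2 (log2 fold change 0.81 to 1.37 and adjusted p up to 0.141 over the mice left out, edgeR). It was also lost by DESeq2 (adjusted p = 0.0602) and with classes by marker score (adjusted p = 0.0873, edgeR). In Müller glia Ccnd1 was 120, 153 and 202 CPM in control and 213, 232 and 357 CPM in Phase I ROP. These groups did not overlap either, but the difference did not pass the test (0.61 ± 0.27, adjusted p = 0.153, edgeR). Reads of Ccnd1 and the neighbouring gene Oraov1 may be shared, as 637 of the 807 cells with Ccnd1 also held Oraov1 and 62.8% of these held equal counts.

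Within the amacrine class most Ccnd1 sat in 1 cluster of 309 cells with Dync1i1, Kcnh1, Lamp5, Slc6a9, the glycine transporter, and the dopamine receptor gene Drd2 among its leading genes. In that cluster Ccnd1 was 134, 130.2 and 43.95 CPM in control, 308, 226.5 and 178 CPM in Phase I ROP, 289 and 252 CPM under ω-3 and 208, 198 and 183 CPM under ω-6. Every control mouse lay below every other mouse, but the control values rest on 11, 11 and 3 UMIs in 20, 17 and 21 cells. In the other amacrine cells Ccnd1 stayed between 1.06 and 18.0 CPM in all 11 mice. The cluster made up 7.80% to 8.40% of control amacrine cells and 7.42% to 13.4% of those in Phase I ROP, and since Ccnd1 was among the genes clustered, its level there is a description.

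**Figure D3:**
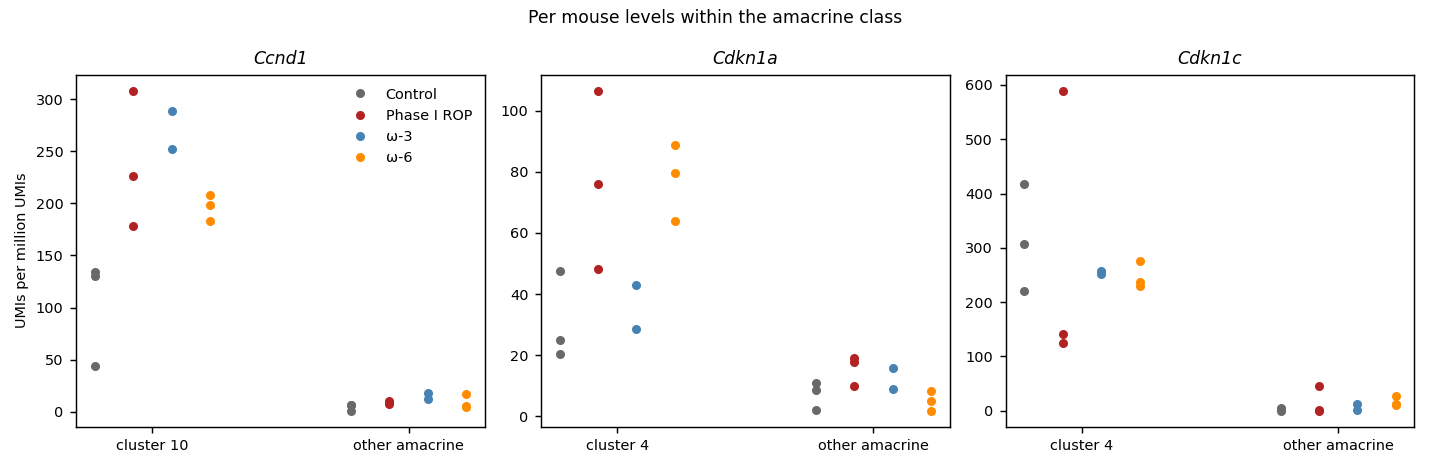
Ccnd1, Cdkn1a and Cdkn1c in UMIs per 1000000 UMIs (vertical axis) for each mouse (points), inside the amacrine cluster that held most of the gene and in all other amacrine cells. Ccnd1 in cluster 10 is lowest in the 3 control mice (43.95 to 134 CPM, from 3 to 11 UMIs in each).

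Ccnd2, the next D cyclin, was too sparse for the test in single classes of Phase I ROP vs. control. In Müller glia it was 19.4, 12.3 and 72.4 CPM in control and 9.41, 30.9 and 109.9 CPM in Phase I ROP. The ranges overlapped fully. Over all cells its log2 fold change was 0.04 ± 0.36 (adjusted p = 0.942, edgeR).

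Ccnd3 gave the largest fold change among the members. In rods it was 278, 389 and 256 CPM in control and 58.6, 49.55 and 36.15 CPM in Phase I ROP. Control rods stood apart from all other mice, with 76.6 and 57.1 CPM under ω-3 and 54.7, 51.4 and 68.2 CPM under ω-6. The log2 fold change was -3.01 ± 0.27 (adjusted p = 1.535e-06, edgeR), and the call held without any 1 mouse. In bipolar cells (-1.38 ± 0.45, adjusted p = 0.0227) and amacrine cells (-1.32 ± 0.37, adjusted p = 0.0117, edgeR) Ccnd3 was also lower, but there only control replicate 2 was high, at 160.5 and 124 CPM, and without it the fold changes were -0.56 and -0.63 and neither was called. Without Phase I ROP replicate 2 or 3 neither was called as well, and with scaling by total UMIs the call in bipolar cells was lost (adjusted p = 0.0773, edgeR).

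Of the 987 Ccnd3 UMIs in rods of all mice, 550 came from 1 cluster of 451 cells, in which 75.4% of cells held Ccnd3 (629 CPM, Poisson interval 578 to 684). Zfp990, Gm15645 and 1700120C14Rik led that cluster, which was named rod by its share of cells with rod markers and not by its leading genes. These Ccnd3 counts moved together with those of unrelated genes. Of 1064 cells with 1700120C14Rik, 658 also held Ccnd3, and 81.5% of those held equal counts of both. In rods 1700120C14Rik (-3.64), Gm15645 (-3.82) and Zfp990 (-3.70) fell with Ccnd3 on the log2 scale. In the annotation, 1 stretch of a Ccnd3 transcript with a retained intron is shared with these genes. It is shown because it bears on what a Ccnd3 count is. It lies on the plus strand of GRCm38 at chr17:47507106-47507195, in no exon of a coding Ccnd3 transcript and inside an intron of 9 of them. The capitals mark 67 bases found, on either strand, in 6 other genes (1700120C14Rik, Gm15645, Zfp990, Tulp3, Mrpl13 and Sympk). These 6 are among the leading genes of that cluster, and whether further genes hold the stretch is not shown here.
Ccnd3 shared stretch: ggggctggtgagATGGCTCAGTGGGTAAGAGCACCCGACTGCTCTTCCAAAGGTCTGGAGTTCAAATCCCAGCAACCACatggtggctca

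A UMI of 1700120C14Rik, Gm15645 or Zfp990 was found in 13.4% to 19.1% of control rods and 2.19% to 5.15% of Phase I ROP rods. In rods without such a UMI, Ccnd3 was 39.3, 53.3 and 42.4 CPM in control and 26.1, 31.8 and 23.8 CPM in Phase I ROP. These values rest on 9, 10 and 17 UMIs in control and 25, 19 and 25 in Phase I ROP. The groups still did not overlap, but the log2 fold change was -1.07 ± 0.40 (adjusted p = 0.0437, edgeR). Cells with Tulp3, Mrpl13 or Sympk, which hold the shared bases too, were kept, so shared reads may remain in these counts. Among cells without a UMI of 1700120C14Rik, Gm15645 or Zfp990, the log2 fold change was -0.16 in bipolar cells (adjusted p = 0.73, edgeR). It was -0.51 in amacrine cells (adjusted p = 0.192) and -0.09 over all cells (adjusted p = 0.696, edgeR), and none of these was called. This restriction was chosen after the data were seen.

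In Müller glia Ccnd3 lay the other way. It was 81.4, 153 and 121.5 CPM in control and 207, 258 and 212 CPM in Phase I ROP, without overlap. The difference did not pass over all Müller glia (0.82 ± 0.27, adjusted p = 0.0634, edgeR), but did with scaling by total UMIs, with classes by marker score and without high doublet scores (adjusted p = 0.0292, 0.0269 and 0.0195, edgeR). In Müller glia without a UMI of the 3 genes, control was 66.2, 125 and 107 CPM and Phase I ROP 203, 255 and 213 CPM, and the log2 fold change was 1.06 (adjusted p = 0.0283, edgeR). The direction of Ccnd3 thus differed between Müller glia and rods, a difference that was not itself tested.

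**Figure D4:**
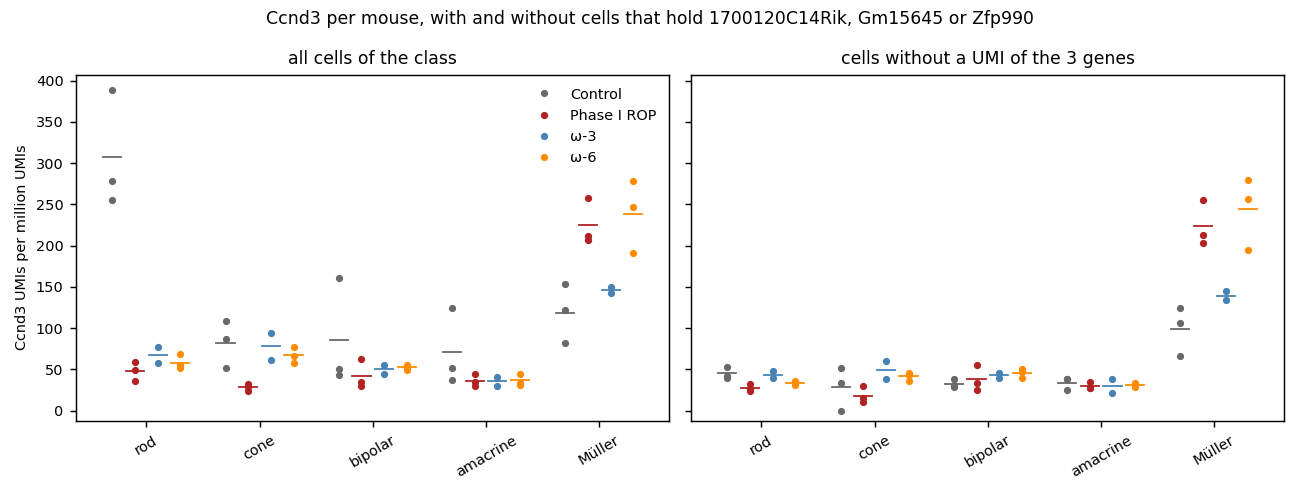
Ccnd3 in UMIs per 1000000 UMIs (vertical axis) for each mouse (points, group means as bars) in all cells of each class (left) and in cells without a UMI of 1700120C14Rik, Gm15645 or Zfp990 (right). Control rods drop from 256 to 389 CPM on the left to 39.3 to 53.3 CPM on the right, while Müller glia change little.

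Cdk4, the kinase partner of the D cyclins, was lower in Phase I ROP Müller glia. It was 337, 294 and 264 CPM in control and 191, 149 and 200.2 CPM in Phase I ROP, without overlap (log2 fold change -0.83 ± 0.22, adjusted p = 0.0256, edgeR). The call held only when control replicate 3 was the mouse left out (adjusted p up to 0.126 over the mice left out, edgeR), and it was lost by DESeq2 (adjusted p = 0.0932), with scaling by total UMIs (adjusted p = 0.0644) and with classes by marker score (adjusted p = 0.0563). In rods Cdk4 was 41.7, 29.6 and 39.8 CPM in control and 58.6, 62.3 and 72.3 CPM in Phase I ROP, all of them higher, and the fitted difference of 0.43 ± 0.32 did not pass (adjusted p = 0.292, edgeR). Cdk4 overlaps Tspan31 on the opposite strand (chr10:127067280-127067920), and 1775 of 1830 cells with Tspan31 held Cdk4, so that part of either count may belong to the other gene. In Müller glia Tspan31 had a log2 fold change of -0.80 (adjusted p = 0.141, edgeR).

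Cdkn1b (p27) had a fitted difference above 0 in Phase I ROP in all 5 classes and over all cells, except in rods when classes were set by marker score, and it passed the test in amacrine cells and over all cells. In amacrine cells it was 58.4, 64.0 and 59.3 CPM in control and 102, 109.6 and 127 CPM in Phase I ROP. No Phase I ROP mouse overlapped a control. The fitted difference was 0.55 ± 0.18 (log2; adjusted p = 0.0241, edgeR), and the call was lost without control replicate 1 or 3 or Phase I ROP replicate 3 (adjusted p up to 0.0853, edgeR), by DESeq2 (adjusted p = 0.0792) and with classes by marker score (adjusted p = 0.126). Over all cells Cdkn1b was 89.9, 78.7 and 75.1 CPM in control and 149, 127 and 140.2 CPM in Phase I ROP (0.52 ± 0.13, adjusted p = 0.00782, edgeR), a call that held without any 1 mouse. The difference in class make-up between these groups enters this value. The fitted differences in rods (0.64, adjusted p = 0.0753), bipolar cells (0.45, adjusted p = 0.0717), cones (1.44, adjusted p = 0.117) and Müller glia (0.41, adjusted p = 0.292, edgeR) did not pass. Scaling by total UMIs brought those in rods and bipolar cells past the threshold (adjusted p = 0.01005 and 0.0019, edgeR).

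Cdkn1a (p21), a target of p53, was higher in Phase I ROP amacrine cells. It was 11.9, 17.5 and 27.4 CPM in control and 58.3, 49.6 and 28.8 CPM in Phase I ROP. The groups were separate, but the highest control and the lowest Phase I ROP mouse were close. The log2 fold change was 0.93 ± 0.36 (adjusted p = 0.0494, edgeR), and the call was lost without control replicate 1 or 2 or Phase I ROP replicate 1 or 2 (adjusted p up to 0.196, edgeR). It was lost as well by DESeq2 (adjusted p = 0.0814) and, in edgeR, with median-of-ratios scaling, with cells of more than 500 genes and at equal depth (adjusted p = 0.0516, 0.0582 and 0.0612). Most amacrine Cdkn1a came from 1 cluster of 1337 cells led by Cartpt and C1ql1, where it was 20.3, 25.1 and 47.5 CPM in control and 107, 75.9 and 48.2 CPM in Phase I ROP.

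Cdkn1c (p57) was lower in Phase I ROP Müller glia. It was 225, 392 and 323 CPM in control and 129, 191 and 184.5 CPM in Phase I ROP, without overlap. The log2 fold change was -1.03 ± 0.25 (adjusted p = 0.0173, edgeR), and the call was lost without control replicate 2 or 3 or Phase I ROP replicate 1 or 2 (adjusted p up to 0.0841, edgeR), or with classes by marker score (adjusted p = 0.0845). In amacrine cells Cdkn1c was 118, 196 and 149 CPM in control and 265, 98.0 and 61.6 CPM in Phase I ROP, with Phase I ROP replicate 1 above and the other two below all controls. Nearly all of it sat in the Cartpt cluster.

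Pcna, the clamp that holds DNA polymerase on its template, was lower in Phase I ROP bipolar cells by the main test. It was 71.7, 58.6 and 88.1 CPM in control and 48.15, 49.5 and 61.1 CPM in Phase I ROP, and the highest Phase I ROP mouse lay above the lowest control. The log2 fold change was -0.87 ± 0.24 (adjusted p = 0.00819, edgeR). The call held without any 1 mouse, but with scaling by total UMIs, added after the data were seen, it was -0.45 (adjusted p = 0.136, edgeR). Every one of the 1992 cells with the pseudogene Pcna-ps2 held Pcna, and 85.9% of these held equal counts, so the counts of the pair cannot be told apart. Pcna-ps2 in bipolar cells had a log2 fold change of -0.84 (adjusted p = 0.0178, edgeR).

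Mki67, which encodes the Ki-67 antigen of cycling cells, and Top2a, which untangles chromosomes before mitosis, were rare. Their promoters are shown because the transcripts were found in the same cells. They are the 250 bases before the start, from RefSeq on GRCm38.p6, both on the minus strand, at chr7:135716380-135716629 for Mki67 and chr11:99024190-99024439 for Top2a. Capitals mark TTTGAA or TTTAAA, the core of the cell cycle homology region (CHR), and CCAAT, each on either strand.
Mki67 promoter: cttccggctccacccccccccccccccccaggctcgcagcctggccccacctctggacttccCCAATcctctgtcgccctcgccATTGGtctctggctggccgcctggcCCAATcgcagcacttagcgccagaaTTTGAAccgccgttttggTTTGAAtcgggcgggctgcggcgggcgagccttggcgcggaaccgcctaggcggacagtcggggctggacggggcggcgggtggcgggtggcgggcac
Top2a promoter: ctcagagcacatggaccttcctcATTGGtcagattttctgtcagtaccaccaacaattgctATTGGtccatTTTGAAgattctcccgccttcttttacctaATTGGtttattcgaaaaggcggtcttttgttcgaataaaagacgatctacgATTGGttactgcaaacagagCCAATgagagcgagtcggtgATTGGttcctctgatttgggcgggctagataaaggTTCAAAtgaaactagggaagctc
Each held 2 CHR words, and Mki67 held 3 and Top2a 6 CCAAT words. Of 32851 promoters of this length, 25.2% held a CHR word and 33.85% a CCAAT word. Among the other members with a promoter in the table, Cdkn1b held 1 CHR and 2 CCAAT words, Pcna 0 and 1, and 1 of the 2 Ccnd3 promoters 0 and 1, while Cdk4 and Cdkn1a held neither.

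Mki67 was seen in 63 of 20033 cells and Top2a in 230, and 35 cells held both. Of these 35, 21 were in the Müller class and 11 in the endothelial class. Mki67 was found in 2.25% of Müller class cells (exact 95% interval 1.54 to 3.15) and 11.5% of endothelial cells (6.27 to 18.9). It was found in 0.0702% of rods (0.0282 to 0.145) and 0 of 3596 bipolar cells. For bipolar cells, 3 cells would be 0.0834% and the exact interval reaches 0.102%, both limits on cells with a UMI. Top2a was found in 3.72% of Müller class cells (2.80 to 4.84) and 13.3% of endothelial cells (7.62 to 20.9), against 0.592% of rods (0.451 to 0.763) and 0.695% of bipolar cells (0.450 to 1.02). The median depth was 2082 UMIs in Müller glia, 4392 in endothelial cells, 1054 in rods, 2260.5 in bipolar cells and 3053 in amacrine cells, in which Top2a was found in 1.52% (1.13 to 2.00). These shares were not set to equal depth.

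Cells of the Müller class with both genes were counted in each mouse. There were 0, 0 and 1 in control, 0, 1 and 2 in Phase I ROP, 8 and 2 under ω-3, and 1, 2 and 4 under ω-6. Most of the ω-3 cells came from 1 mouse. In the endothelial class 7 of the 11 such cells came from ω-6 replicate 2. These 21 cells of the Müller class, chosen by the 2 genes and with a higher median depth (3626 UMIs) than the 1361 cells with neither (2031), are described without a test. They held Ccnd1 at 672 CPM (535 to 833) against 272 (255 to 289.5), Ccnd2 at 186 (118 to 279.5) against 30.4 (25.0 to 36.7), and Cdkn1a at 219 (144 to 318) against 37.3 (31.3 to 44.1). Pcna was 162 CPM (98.9 to 250.1) against 63.1 (55.2 to 71.8) and Cdk4 356 (259 to 478) against 236 (220.1 to 252). The intervals of Cdkn1b (211 against 245 CPM), Cdkn1c (259 against 189) and Ccnd3 (138 against 181.5) overlapped. Cdk1, the mitotic kinase, was 235 against 4.11 CPM. The Müller markers Rlbp1 (235 against 3119 CPM) and Slc1a3 (575 against 3438) were lower in them, so these markers go against the name of their class. The Mki67 and Top2a shares above are those of the class, not of cells shown to be Müller glia.

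**Figure D5:**
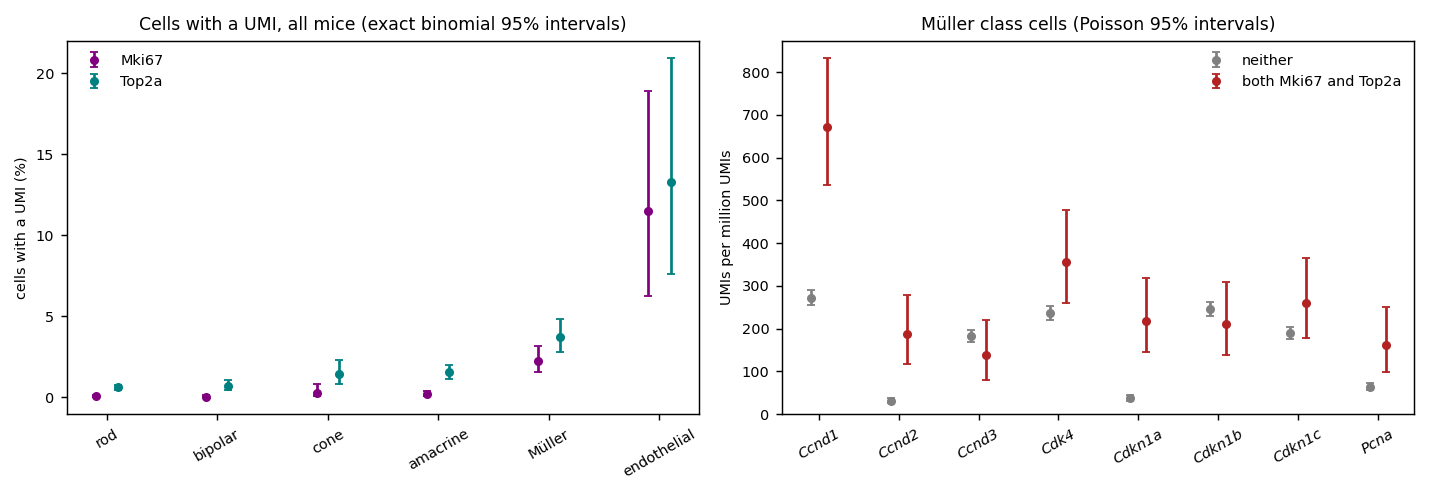
Left, share of cells (vertical axis, percent) with a UMI of Mki67 or Top2a in 6 classes, all mice pooled, with exact binomial 95% intervals. Right, level of the other 8 members in UMIs per 1000000 UMIs in Müller class cells with both genes (red, 21 cells) and with neither (grey, 1361 cells), with Poisson 95% intervals. Ccnd1 is 672 CPM in the former and 272 CPM in the latter.

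To compare groups at equal depth, every cell was thinned to 700 UMIs and shallower cells were left out (10.1% of control, 22.4% of Phase I ROP, 8.61% of ω-3 and 10.5% of ω-6 cells). The share of all cells with a UMI of Mki67 or Top2a was then 0.233%, 0.279% and 0.691% in control and 0.251%, 0.540% and 0.513% in Phase I ROP. The groups overlapped and their means differed by 0.034 percentage points (exact two-sided permutation test, p = 0.9, where 0.1 is the smallest possible). It was 0.961% and 0.257% under ω-3 and 0.221%, 0.664% and 0.631% under ω-6, a difference of -0.103 points (exact permutation test, p = 0.8, where 0.2 is the smallest possible). Without thinning the means were 1.26% in control and 0.874% in Phase I ROP (exact permutation test, p = 0.2).

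Under ω-6 vs. ω-3, no member was called in any class: 0 of 5 in rods and cones, 0 of 7 in bipolar and amacrine cells and 0 of 10 in Müller glia and over all cells (edgeR; unadjusted p under 0.05 for 1 to 3 members in each). By the main test, 0.0159% of all tested genes were called in rods and 0 in the other classes. A replicate block gave more calls, listed at the end. The members with fitted differences above 0.9 on the log2 scale, in either direction, are given as values. Cdkn1a in bipolar cells was 7.83 and 6.29 CPM under ω-3 and 20.8, 7.99 and 27.4 CPM under ω-6, from 7 to 16 UMIs in each mouse (log2 fold change 1.39 ± 0.61, adjusted p = 0.991, edgeR). In amacrine cells it was 29.8 and 19.7 CPM under ω-3 and 35.7, 50.5 and 45.7 CPM under ω-6 (0.93 ± 0.28, adjusted p = 0.457, edgeR). In Müller glia it was 60.0 and 65.1 CPM under ω-3 and 22.9, 16.7 and 43.8 CPM under ω-6 (-1.09 ± 0.43, adjusted p = 0.994, edgeR). The groups did not overlap in any of these 3 classes. Pcna in cones was 45.5 and 47.1 CPM under ω-3 and 81.2, 71.4 and 122 CPM under ω-6 (1.00 ± 0.30, adjusted p = 0.537, edgeR). Top2a in Müller glia was 119 and 73.2 CPM under ω-3 and 22.9, 26.3 and 77.2 CPM under ω-6, with overlap (-1.11 ± 0.44, adjusted p = 0.994, edgeR).

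The other genes of the cycle were counted in fixed lists over all cells of Phase I ROP vs. control, where class make-up differed as well. Over all genes the median log2 fold change was 0.00, with 24.7% called higher and 23.4% lower. Of 25 tested G1 regulators, members included, 9 were higher and 4 lower, among them E2f6 (2.54) and Mycn (1.64) higher. Of 32 tested genes of DNA replication, 4 were higher and 11 lower, with Pola2, a subunit of DNA polymerase alpha, at -2.13. Of 30 tested G2 and M phase genes, 2 were higher and 6 lower, and Cenpf (-1.80), a kinetochore protein, and Ccnb1 (-1.65), the mitotic cyclin, fell. The 3 lists together had 15 higher and 21 lower of 87. Without Ccnd1 and the genes marked as counted together with another gene, these were 10 and 18 of 71. A gene was marked when it shared sequence with its closest partner and at least 0.2 of the cells with either held both. Reads themselves were not examined, and genes below this limit were kept. Of 24 p53 targets, 12 were higher and 3 lower, with Btg2 at 2.99 and Mdm2 at 1.00. Btg2 is also in the list of immediate early genes, all of which were higher over all cells. Between the diets no gene of these lists was called in any class by the main test.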

How the data were processed

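Retinas were dissociated with papain and single cells captured by inDrop v3. As the study's methods state, the authors ran the inDrop pipeline of bcbio-nextgen, in which umis reads out barcodes and UMIs and Rapmap maps reads onto transcripts (GRCm38), and kept cells with at least 500 reads. The deposited table holds raw UMI counts, as whole numbers for each gene in each cell. How reads that match several genes, or either strand, were treated is not given in the sources used here. No column lacked a sample.

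Cells with more than 300 genes were clustered with Seurat 5.3.0 at a resolution of 0.2 on 75 principal components, and clusters were named from canonical markers. Of the rod clusters, 6 (2475 cells) were named by the share of their cells with rod markers (at least 50%). One cluster was left unnamed (211 cells, 3.59% of control cells and under 1% of the others). Of the members, Ccnd1, Ccnd2, Cdkn1a, Cdkn1c, Mki67 and Top2a were among the genes clustered. Scrublet marked only 0.359% of cells, so doublets were kept, and 990 cells with the highest 5% of scores were left out in an alternative.

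UMIs were summed per mouse and class and tested with edgeR 4.0.16 (R 4.3.3), with TMM scaling, its filter on low counts and only the 2 groups compared, in classes with at least 10 cells in every mouse. The test was also run on simulated counts, drawn with the same spread setting for every gene. That run does not show how the test behaves on these data. Counts of a list stand beside those of all genes, with no set test. Shares were compared by an exact permutation test over mice (2 comparisons). Intervals are at 95% and the limit for a count of 0 is 3 counts or, for a CPM, the Poisson limit; both cover counting error only. Depths are in the text.

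The alternatives were DESeq2 1.42.0, other scaling, no filter, all 4 groups in 1 fit, a replicate block, each mouse left out, cells with more than 500 genes, classes by marker score, clustering without the lists, no high doublet scores and equal depth. Scaling by total UMIs and Ccnd3 in cells without 3 other genes were added after the data were seen. The members and lists were chosen with earlier results of these data known. Named were all members and, from each list, up to 3 called genes per direction whose mice did not overlap, with 10 fixed partner genes. Genes that share cells and sequence with a member, the leading genes of clusters, Rn7sk, and markers of the late-cycle cells were chosen after their values were seen. Annotation was GENCODE M21 on GRCm38. Gene pairs were compared by words of 31 bases. RefSeq promoters of Ccnd1, Ccnd2 and Cdkn1c were not analysed here.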

Additional observations from a re-analysis of the deposited data

Results flagged for a closer look

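Some members had fitted differences of opposite sign in different classes, with every mouse of a group on the same side in each. These differences between classes were not tested. In Phase I ROP vs. control, the log2 fold change of Ccnd3 was 0.82 in Müller glia and -3.01 in rods. Cdk4 was at 0.43 in rods and 0.11 in bipolar cells, and at -0.83 in Müller glia, of which only the last passed the test. In ω-6 vs. ω-3, Cdkn1a was at 0.93 in amacrine cells, 1.39 in bipolar cells and -1.09 in Müller glia, and none of the 3 passed the test.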

How the results depend on the processing

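Groups of 2 or 3 mice limited the tests, and few UMIs limited Mki67, Top2a and Ccnd2 most. Of the called members, Ccnd3 in rods and over all cells, Cdkn1b over all cells and Pcna in bipolar cells kept their calls without any 1 mouse. The level of each member in its highest class moved by less than 1 SD under the 3 alternatives run for it. Causes of the changes below were not tested.

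Called members in Phase I ROP vs. control changed as follows. In rods (1) there were 2 with scaling by total UMIs, no filter, all 4 groups in 1 fit or cells with more than 500 genes, and 1 to 2 without single mice. In cones (0) there was 1 with scaling by total UMIs or all 4 groups, 2 with classes by marker score, and 0 to 1 without single mice. In bipolar cells (2) there were 4 with clustering without the lists, 1 with Ccnd3 restricted to cells without the 3 genes, and 1 to 3 without single mice. In amacrine cells (4) there was 1 by DESeq2, 2 by marker score and 1 to 3 without single mice. In Müller glia (2) there was 1 by DESeq2 or marker score and 0 to 1 without single mice. Over all cells (2) there was 1 with Ccnd3 restricted.

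Called cell cycle genes went in rods from 17 to 28 with no filter, 29 with all 4 groups, 5 by marker score, 6 at equal depth and 9 to 18 without single mice. In cones they went from 2 to 1 by DESeq2, 4 by marker score, 0 at equal depth and 0 to 2 without single mice. In bipolar cells they went from 17 to 10 by marker score. In amacrine cells they went from 18 to 7 by DESeq2, 10 by marker score and 7 to 14 without single mice. In Müller glia they went from 3 to 1 by DESeq2 and 0 to 2 without single mice. Called p53 targets went in rods from 10 to 3 by marker score, in cones from 3 to 0 at equal depth, in amacrine cells from 11 to 7 by DESeq2 and 7 to 10 without single mice, and in Müller glia from 4 to 2 by DESeq2 or at equal depth and 2 to 3 without single mice. Called immediate early genes went in cones from 9 to 4 at equal depth and in bipolar cells from 9 to 16 with no filter and 14 with all 4 groups.

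In ω-6 vs. ω-3, 0 immediate early genes became 2 in rods and 1 in cones by DESeq2, no filter or the replicate block, and 1 over all cells by DESeq2 or the block. Replicate numbers did not pair the mice (correlations of -0.005 to 0.116 for Phase I ROP and control, and 0.081 and 0.279 for the diets). With the replicate block in Phase I ROP vs. control, Cdkn1a in amacrine cells was no longer called (log2 fold change 0.92, adjusted p = 0.0823) and Ccnd3 in Müller glia was called (0.83, adjusted p = 0.0455, edgeR). In ω-6 vs. ω-3 with the block, 1 member was called in Müller glia, Top2a with a log2 fold change of -1.85 (adjusted p = 0.00697, edgeR), and with it 1 cell cycle gene.

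The difference in the share of cells with Mki67 or Top2a between Phase I ROP and control changed sign, to -0.385 points without thinning, -0.384 with at least 2 genes of the G2 and M phase list and -0.0151 without high doublet scores. Cdkn1b in rods changed sign with classes by marker score (log2 fold change -0.061, adjusted p = 0.936, edgeR).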
